A study of Mus musculus with 2 samples.

Results

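Which cells of a pancreatic tumor carried the transcripts of 9 complement genes was described in single cells of the mouse. The genes were C1qa, C1qb, C1qc, C1s1, C2, Masp1, C3, Cfb and Serping1, found by symbol among the 19059 genes of the deposited matrix, and all 9 were there. They were picked with earlier results of these data in view, so every level and difference here is a description and carries no test. The tumors were KPC tumors grown in the pancreas (orthotopic). KPC is a genetic mouse model of pancreatic cancer that relies on a pancreatic Cre. One sample came from tumors given the vehicle DMSO and the other from tumors given EIPA, ethyl-isopropyl-amiloride, at 10 mg/kg, a blocker of sodium-proton exchangers and of macropinocytosis. Each sample pooled 4 tumors, so animals could not be told apart. Strain, sex, age, treatment time and the Cre driver are not given in the sources used here. The barcodes fell into library 1 and library 2 by their last digit, and nothing tied a digit to a treatment. The libraries are therefore named by number, and higher or lower in library 2 says nothing of EIPA.

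Complement is a chain of secreted proteins, some of them proteases, that tags cells and debris for uptake. C1q, built from the A, B and C chains, binds immune complexes and dying cells and starts the classical pathway through the proteases C1r and C1s. The lectin pathway starts through the MASP proteases, and both routes cut C4 and C2 to make an enzyme that cleaves C3. The alternative pathway uses factor B (Cfb) in a second C3-cleaving enzyme that amplifies the first. C1 inhibitor (Serping1) blocks C1r, C1s and the MASPs. The liver makes most plasma complement, and macrophages, fibroblasts and epithelia make parts of it in tissues.

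Library 1 held 12337 cells with a median of 11695 UMIs and library 2 held 11945 cells with 10756. A UMI tags 1 captured molecule. The libraries shared 225 barcodes. After filters and removal of likely doublets, 11115 and 10785 cells were left. Cells were sorted by marker genes into lineages, and 7 lineages with at least 30 cells in each library were ranked. The epithelial tumor gate took only cells that passed no other gate, so cells that missed their own gate could enter it. Cells of the epithelial tumor gate numbered 9085 and 8364 (81.7% and 77.6%), macrophages or monocytes 450 and 529, fibroblasts 378 and 444, T or NK cells 78 and 247, blood endothelial cells 131 and 110, neutrophils 55 and 68 and pericytes 41 and 51. A further 731 and 675 cells passed no gate. The gates were set beside clusters of the same cells, which also use the marker genes: cells with the matching gate made up 83.2% of the fibroblast cluster, 62.2% of the macrophage cluster, 83.8% of the T or NK cluster, 80.5% of the blood endothelial cluster, 43.5% of the neutrophil cluster and 64.6% to 99.7% of the tumor clusters. Depth differed by lineage, with a median of 13143 and 13144 UMIs in tumor cells, 2378 and 2677 in macrophages and 834 and 1046 in neutrophils. Levels are the UMIs of a gene over all UMIs of a lineage, on the counts-per-million (CPM) scale. Intervals of levels are exact Poisson 95% intervals, and intervals of levels and ratios cover counting error only. Each lineage had 1 library per number, and cells are not replicates.

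The 3 C1q genes lie side by side on chromosome 4 and Cfb and C2 on chromosome 17, all in GRCm38. C1qb (chr4:136880129-136886187) is 3617 bases from C1qc (chr4:136889804-136893065), which is 2852 bases from C1qa (chr4:136895917-136898803). Cfb (chr17:34856374-34862518) ends 86 bases before C2 (chr17:34862604-34898265), and both are on the minus strand. C3 (chr17:57203970-57228136) is elsewhere on that chromosome. C1s1 is at chr6:124530345-124542359, Serping1 at chr2:84765387-84775444 and Masp1 at chr16:23449417-23520815. RefSeq promoter windows (GRCm38.p6) could be matched for 4 of the 9 genes. The 250 bases before the start site are shown for a macrophage gene (C1qb), a fibroblast protease gene (C1s1) and C3, which several lineages carried, to set the main patterns of the results beside their promoters. They are written 5′ to 3′ on the minus strand from chr4:136886201-136886450, chr6:124542360-124542609 and chr17:57228137-57228386, and capitals mark motif letters on either strand.
C1qb: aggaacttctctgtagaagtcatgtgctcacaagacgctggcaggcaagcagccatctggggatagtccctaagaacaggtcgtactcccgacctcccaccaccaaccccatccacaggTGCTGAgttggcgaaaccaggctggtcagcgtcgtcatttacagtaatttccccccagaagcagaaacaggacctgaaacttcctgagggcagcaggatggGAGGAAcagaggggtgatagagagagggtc
C1s1: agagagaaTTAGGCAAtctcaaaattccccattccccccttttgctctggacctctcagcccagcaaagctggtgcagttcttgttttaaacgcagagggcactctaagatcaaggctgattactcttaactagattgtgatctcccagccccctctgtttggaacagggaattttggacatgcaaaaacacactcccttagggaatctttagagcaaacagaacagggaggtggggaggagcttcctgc
C3: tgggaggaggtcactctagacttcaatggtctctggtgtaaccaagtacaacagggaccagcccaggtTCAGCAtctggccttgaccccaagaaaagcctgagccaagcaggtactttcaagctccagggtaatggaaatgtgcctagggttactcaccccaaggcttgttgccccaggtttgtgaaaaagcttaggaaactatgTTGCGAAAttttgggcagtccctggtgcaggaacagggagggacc
The letters searched on both strands were TTGCNNAA (C/EBP), TTCNNNGAA (STAT), GAGGAA (PU.1), TGCTGA (a MAF half-site), along with the ISRE motif. The STAT letters stand in 7.02% and the ISRE in 2.98% of promoters and in none of the windows printed here. The C/EBP letters stood 45 bases before the C3 start (position -45) and at -242 of the C1s1 start shown, and 9.56% of 32851 RefSeq promoters of this length hold them. C1qb held the MAF half-site at -131 and the PU.1 letters at -30, and C3 held the MAF half-site at -182. Those letters are common, in 16.1% and 23.3% of promoters. RefSeq gives C1s1 another start site, whose window (chr6:124542322-124542571) held none of the motifs. A match describes the sequence and shows no binding.

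The 9 genes divided into a macrophage group (the C1q chains), a fibroblast group (C1s1, C2, Masp1 and Serping1) and 2 genes spread over tumor cells and several other lineages (C3 and Cfb). Masp1 was first in fibroblasts in library 1 only, and no ranked lineage reached 20 CPM of it in library 2. A gene was called clear when 1 lineage was first in both libraries, at least 2-fold above the next and at 20 CPM or more. The clear genes were C1qa, C1qb and C1qc in macrophages and C2 in fibroblasts, 4 of 9. Among 10636 genes at that level, 11.1% were clear in any lineage, 2.01% in macrophages and 1.86% in fibroblasts. The members were chosen on such patterns, so nothing is read from the share. The same lineage was first in both libraries for 6 of the 9. The other lineages were first with a clear lead for 0 members, beside 0.395% of genes for tumor cells, 1.35% for pericytes, 2.91% for blood endothelial cells, 1.08% for neutrophils and 1.52% for T or NK cells.

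**Figure D1:**
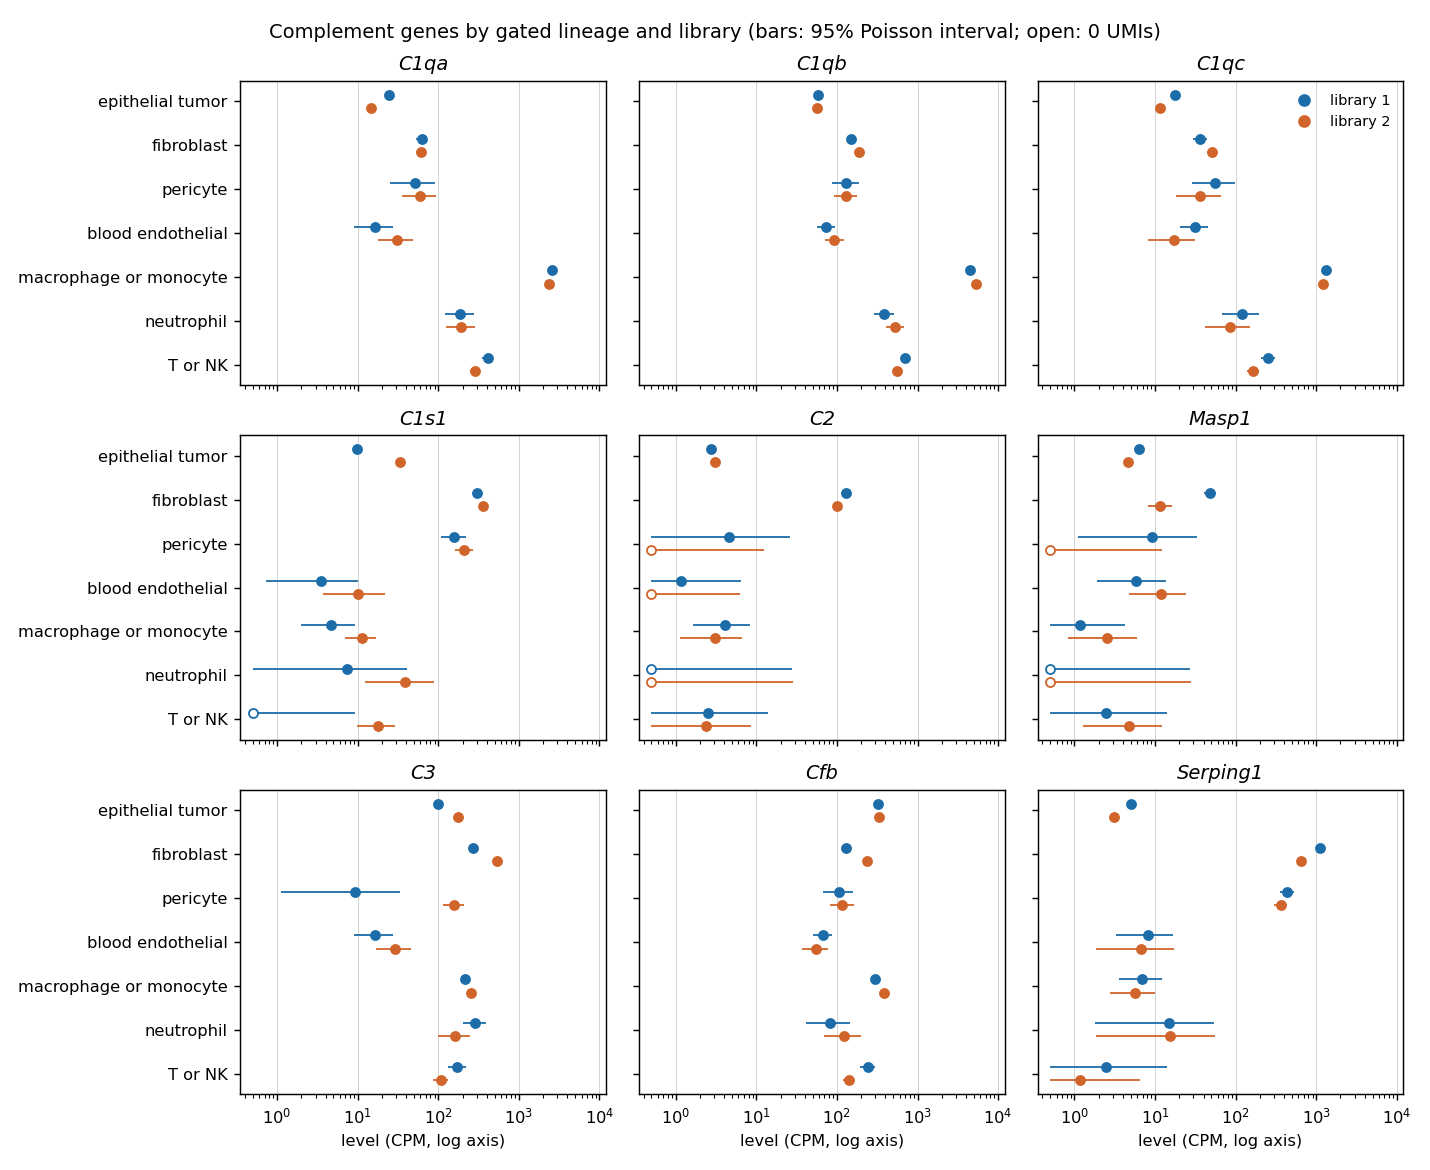
Level of each complement gene (CPM, log axis) in the 7 ranked lineages, with library 1 in blue and library 2 in orange; bars are exact Poisson 95% intervals and open circles are 0 UMIs, drawn at the left edge. The C1q chains peak in macrophages (1208 to 5261 CPM), C2 and Serping1 in fibroblasts, and C3 and Cfb have no single peak.

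C1qa, C1qb and C1qc, the chains of the recognition molecule, were highest in macrophages. C1qa was at 2554 CPM (2479 to 2630) in library 1 and 2374 (2306 to 2443) in library 2 there. C1qb was at 4480 (4380 to 4581) and 5261 (5160 to 5363), and C1qc at 1342 (1287 to 1397) and 1208 (1160 to 1258). The ratio of library 2 to library 1 (log2 of CPM plus 1) was -0.11, 0.23 and -0.15. With Leiden clusters in place of gates it was 0.39, 0.76 and 0.30, so the direction for C1qa and C1qc turned with the way macrophages were defined. Macrophages exceeded the next lineage, T or NK cells, 6.22-fold and 8.35-fold for C1qa, 6.44-fold and 9.46-fold for C1qb and 5.31-fold and 7.33-fold for C1qc. The T or NK level rested on few cells, since the 3 highest held 53.0% and 52.1% of the C1qa UMIs. After each cell was thinned to 1000 UMIs, all 3 chains were seen in 61.3% of 388 macrophages in library 1 and 48.5% of 468 in library 2. None was seen in 1.29% and 3.21%. In blood endothelial cells no thinned cell held all 3 (0 of 124 and 0 of 102), and 87.1% and 87.3% held none. Shallower cells left out numbered 62 and 61 macrophages and 7 and 8 endothelial cells.

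By level tumor cells were far below macrophages for C1q, but by their share of UMIs they were close. They had 24.4 and 14.5 CPM of C1qa, 57.6 and 56.8 of C1qb and 17.5 and 11.5 of C1qc, which is 0.611% to 1.30% of the macrophage level. Because tumor cells were many and deep, they still held 40.5% and 26.1% of all C1qa UMIs, 47.3% and 37.5% of C1qb and 47.7% and 34.5% of C1qc. Macrophages held 46.5% and 58.2%, 40.3% and 47.3%, and 40.2% and 49.3%, so tumor cells held more than macrophages only for C1qb and C1qc in library 1. Without doublet removal the library 2 level in tumor cells was 24.9 CPM for C1qa and 17.7 for C1qc, and as a mean of per-cell shares C1qb was at 85.6. The 10 macrophage markers stood in tumor cells at a median of 1.26% and 0.922% of their macrophage level. The range was 0.927% to 110% and 0.672% to 94.6%, so not every marker was low in tumor cells. The C1q chains were thus at about the median percentage of these markers. In T or NK cells the chains were at 10.6% to 18.8% and the markers at 12.7% and 9.90%. In neutrophils the chains, at 6.98% to 10.1%, were below the markers, at 15.4% and 13.2%. The part of free or attached macrophage RNA in these values was not tested.

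Some of the tumor C1q sat in few cells. Clustering without the 9 genes placed 221 and 89 tumor-gated cells in the macrophage cluster, and these held 30.9% and 14.0% of the C1qa UMIs of tumor cells. Without them C1qa was at 17.2 and 12.6 CPM, C1qb at 44.5 and 51.5 and C1qc at 12.7 and 10.4. The chains did not keep the macrophage proportions. C1qb stood at 1.75 and 2.22 times C1qa in macrophages, at 2.36 and 3.92 times in all tumor cells, and at 2.59 and 4.10 times in tumor cells outside that cluster. In T or NK cells the ratio was 1.70 and 1.95, near the macrophage value. Cells that passed no gate reached 5.32 in library 2, on 85 C1qa UMIs.

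**Figure D2:**
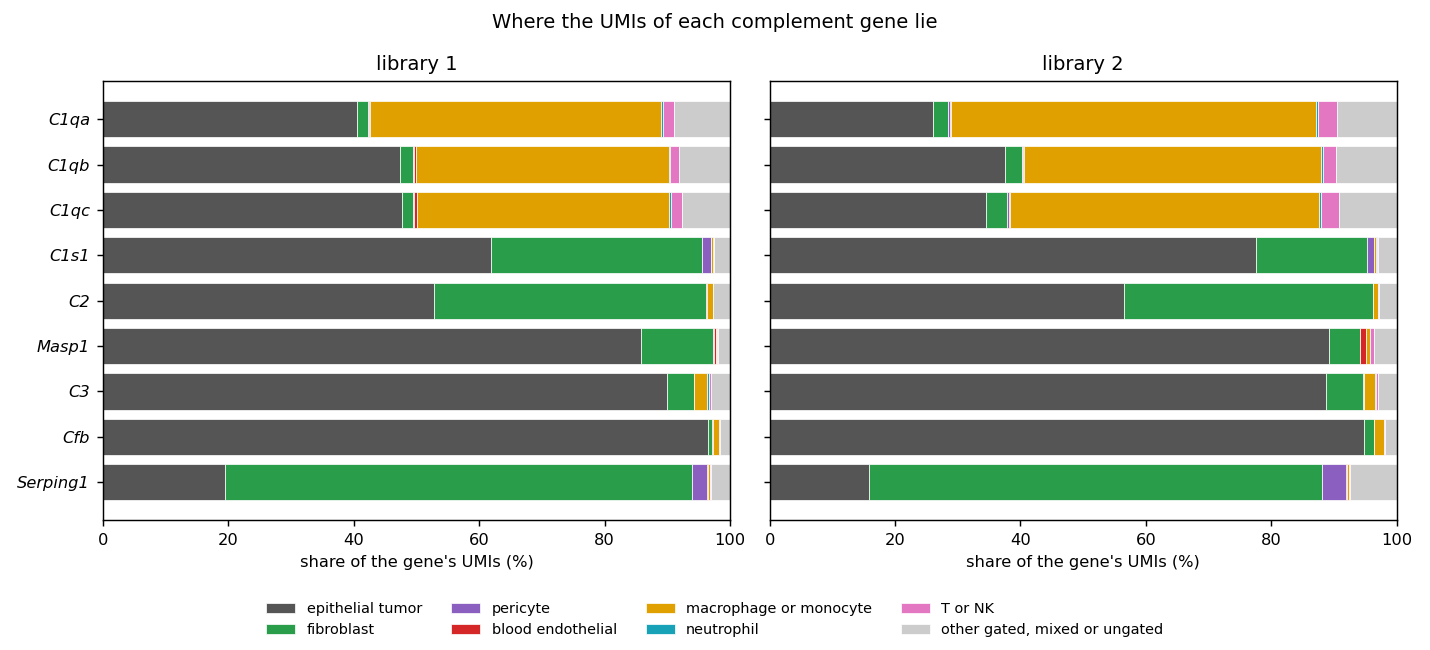
Share of each gene's UMIs (percent) held by each lineage in library 1 (left) and library 2 (right); grey bars at the right end are other gated, mixed or ungated cells. Tumor cells hold most UMIs of C3 and Cfb, while fibroblasts hold most of Serping1 (74.5% and 72.1%).

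**Figure D3:**
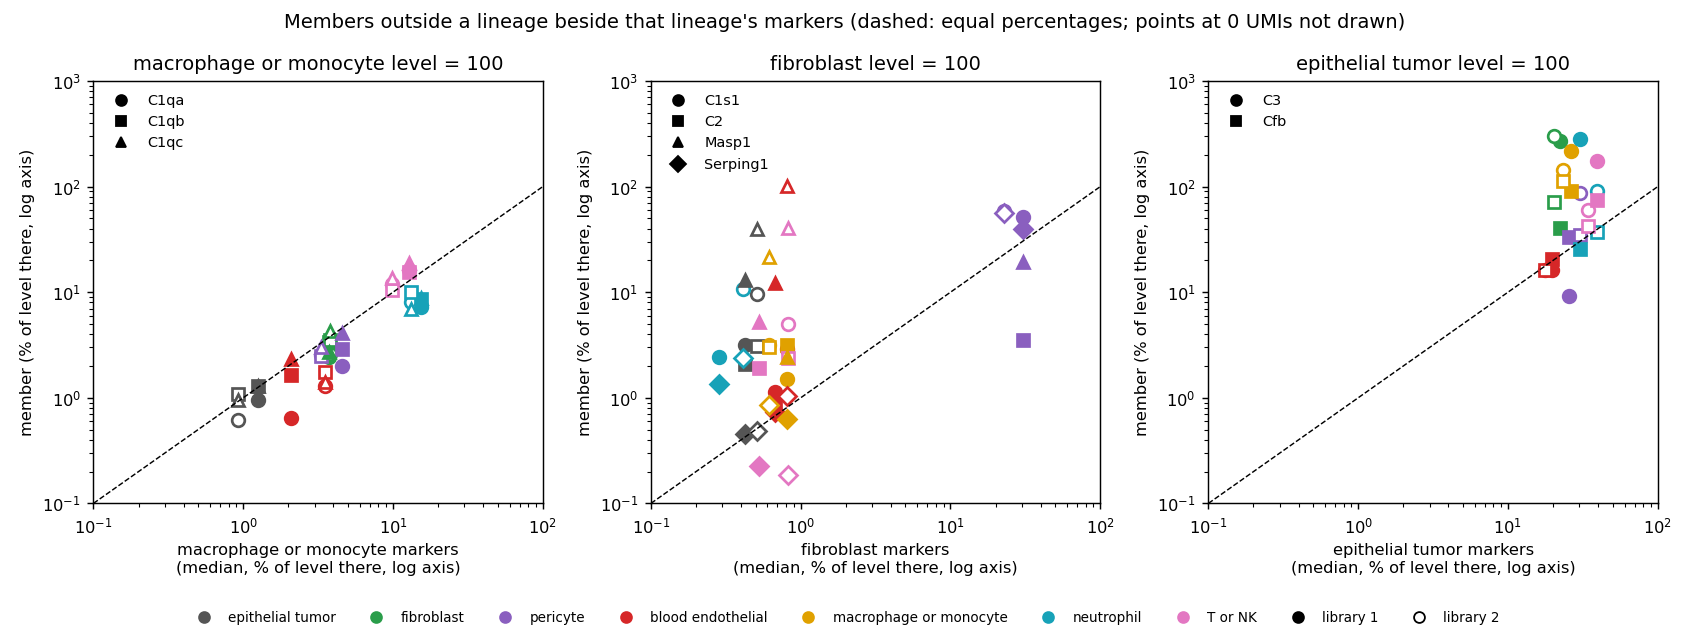
Level of each gene outside a reference lineage (vertical, percent of the level there, log axis) against the median of that lineage's markers (horizontal, same unit, log axis); filled points are library 1, open points library 2, and the dashed line marks equal percentages. The C1q chains lie near the line in tumor cells and T or NK cells and below it in neutrophils. C1qa in blood endothelial cells is also below. Among the points above it are C1s1, C2 and Masp1 in tumor cells. C3 in fibroblasts, macrophages, neutrophils and T or NK cells is also above.

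C1s1, the gene of the C1s protease that cuts C4 and C2, was highest in fibroblasts, with pericytes next. Fibroblasts had 306 CPM (286 to 328) from 829 UMIs in library 1 and 354 (333 to 375) from 1121 in library 2, a log2 ratio of 0.21. Pericytes had 157 and 210 CPM from 34 and 63 UMIs, of which 3 cells gave 41.2% and 38.1%. Blood endothelial cells and macrophages had 3.49 to 11.2 CPM. T or NK cells had 0 UMIs in library 1, which allows up to 7.51 CPM by a floor of 3 counts, used here for lineage levels of 0 (the upper end of the Poisson interval is 9.23), and 17.8 CPM in library 2. Tumor cells had 9.74 CPM in library 1 and 34.0 in library 2, from 1528 and 4928 UMIs. That log2 ratio was 1.71 (counting interval 1.62 to 1.79), and 0.411% of the 8522 genes at 20 CPM in tumor cells were past 2-fold higher in library 2. Fibroblast markers in tumor cells were at 0.423% and 0.511% of their fibroblast level, and C1s1 at 3.18% and 9.63%. In tumor cells thinned to 5000 UMIs, C1s1 was seen in 3.70% of 7566 and 9.80% of 6785 cells (1519 and 1579 shallower cells left out). Tumor cells held 61.9% and 77.6% of all C1s1 UMIs.

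C2, the protease component that C1s cleaves, was nearly all in fibroblasts by level. It was at 130 CPM (116 to 144) from 351 UMIs in library 1 and 99.7 (89.0 to 111) from 316 in library 2, a log2 ratio of -0.38. The ratio was -0.06 as a mean of per-cell shares and 0.10 with cells thinned to 1000 UMIs, so its direction was not stable. The fold over the next lineage was 28.0 and 32.1. No other ranked lineage passed 4.63 CPM. Lymphatic endothelial cells, too few to rank, had 9 and 0 UMIs (85.2 CPM in library 1). Neutrophils had 0 UMIs in both libraries, which allows up to 22.3 and 23.0 CPM. Pericytes, which share matrix genes with fibroblasts, had 1 and 0 UMIs of C2, the latter allowing 9.98 CPM. C2 and C1s1 thus differed in pericytes: C1s1 was at 51.4% and 59.2% of its fibroblast level there and C2 at 3.57% in library 1. Tumor cells at 2.73 and 3.11 CPM were at 2.10% and 3.12% of the fibroblast level. Fibroblast markers in tumor cells were lower, at 0.423% and 0.511%. Tumor cells held 52.8% and 56.5% of the C2 UMIs. Cfb, the neighbor of C2 on the chromosome, was at 321 and 332 CPM in those tumor cells.

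Masp1, a lectin-pathway protease gene, was the lowest of the fibroblast group and the one that differed most between the libraries. Fibroblasts had 48.0 CPM from 130 UMIs in library 1 and 11.7 from 37 in library 2. The log2 ratio was -1.95 (counting interval -2.48 to -1.42), and 1.33% of 8668 genes at 20 CPM in fibroblasts were past 2-fold lower. Fibroblasts were first in library 1, 5.19-fold above pericytes. In library 2 blood endothelial cells were level with them at 11.9 CPM, on 7 UMIs of which 3 cells gave 85.7%. In library 2 the 3 highest fibroblasts held 48.6% of the 37 UMIs. Leaving out the 3 highest cells of each lineage gave -2.47, and thinning to 1000 UMIs gave -1.01. Tumor cells had 6.26 CPM (982 UMIs) and 4.60 (666 UMIs). Fibroblasts were 7.67-fold above tumor cells in library 1, and tumor cells were at 39.4% of the fibroblast level in library 2, whereas fibroblast markers in tumor cells were at 0.423% and 0.511%. Tumor cells held 85.8% and 89.2% of all Masp1 UMIs. Among the tumor clusters of 30 or more cells in each library, Masp1 was between 0 and 11.7 CPM in library 1 and between 1.97 and 8.23 in library 2.

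Serping1, which encodes C1 inhibitor, was in fibroblasts and pericytes. Fibroblasts had 1106 CPM (1067 to 1146) in library 1 and 646 (619 to 675) in library 2, a log2 ratio of -0.77. Pericytes had 435 and 362 CPM, so the fold of fibroblasts over pericytes was 2.54 in library 1 and 1.78 in library 2. Lymphatic endothelial cells, too few to rank (13 and 10 cells), had 151 and 255 CPM, whereas blood endothelial cells had 8.15 and 6.78. Tumor cells had 4.99 and 3.13 CPM, 0.451% and 0.484% of the fibroblast level, beside 0.423% and 0.511% for fibroblast markers. Fibroblasts held 74.5% and 72.1% of all Serping1 UMIs and tumor cells 19.5% and 15.9%, the reverse of the order for C1s1 and Masp1.

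C3, the component on which all pathways meet, was spread over most lineages. By CPM from summed UMIs, fibroblasts were highest on average over the libraries. In library 1 the levels were 267 CPM in fibroblasts, 282 in neutrophils (38 UMIs), 215 in macrophages, 173 in T or NK cells, 99.7 in tumor cells, 16.3 in blood endothelial cells and 9.25 in pericytes. In library 2 they were 538 in fibroblasts, 258 in macrophages, 178 in tumor cells, 161 in neutrophils (21 UMIs), 156 in pericytes, 108 in T or NK cells and 28.8 in blood endothelial cells. Fibroblasts and neutrophils did not differ beyond counting error in library 1 (248 to 288 and 200 to 388 CPM), while in library 2 fibroblasts were 2.09-fold above macrophages. The log2 fold of fibroblasts over the highest other lineage was -0.08 and 1.06. As a mean of per-cell shares it was -1.36 and 1.68, so in library 1 another lineage was then well above fibroblasts. The log2 ratio of library 2 to library 1 was 1.01 in fibroblasts (counting interval 0.88 to 1.13), where 1.03% of genes were past 2-fold higher, and 0.83 in tumor cells. Masp1 and C3 were the 2 of 9 genes past 2-fold in their first lineage, and C3 is at the threshold. Pericytes showed a log2 ratio of 3.94 on 2 and 47 UMIs (counting interval 1.90 to 5.98), where 8.20% of genes were past 2-fold higher and 3 cells gave 78.7% of the library 2 UMIs.

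Epithelial markers were also found in the other lineages. As a percentage of the tumor level, C3 was above their median in fibroblasts, macrophages, neutrophils and T or NK cells. The median of the 10 epithelial markers in fibroblasts was 22.2% and 20.2% of the tumor level (17.3% to 57.2% and 12.8% to 66.0%), with summed levels of 1617 and 1710 CPM against 6807 and 6942 in tumor cells, and C3 there was at 268% and 302%. In macrophages the markers were at a median of 26.4% and 23.3% (19.7% to 1161% and 8.43% to 1224%) and C3 at 216% and 145%. The 3 highest macrophages held 31.0% and 22.2% of the macrophage C3 UMIs. In blood endothelial cells C3 was at 16.4% and 16.2% of the tumor level beside 19.6% and 17.8% for the markers. T or NK cells had C3 at 173% and 60.5% beside 39.3% and 34.3%, and in library 1 the 3 highest cells held 71.0% of the UMIs. Neutrophils had C3 at 283% and 90.4% beside 30.2% and 39.3%, on 38 and 21 UMIs. Pericytes had C3 at 9.29% and 87.7% beside 25.4% and 30.1%. Tumor cells held 90.0% and 88.7% of all C3 UMIs. The part of tumor RNA in the C3 and Cfb values of other lineages was not tested.

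Cfb, factor B of the alternative pathway, was even between tumor cells and macrophages. Tumor cells had 321 CPM (318 to 324) and 332 (329 to 335), a log2 ratio of 0.05. Macrophages had 293 (268 to 319) and 379 (352 to 407), a log2 ratio of 0.37. Tumor cells were first in library 1 by 1.10-fold and macrophages in library 2 by 1.14-fold. Fibroblasts had 130 CPM in library 1 and 237 in library 2 (0.86), T or NK cells 240 and 142, pericytes 106 and 116, neutrophils 81.7 and 123 and blood endothelial cells 66.4 and 54.3. As percentages of the tumor level, macrophages stood at 91.2% and 114%, above the median of the epithelial markers there. Also above it were fibroblasts (40.5% and 71.4% beside 22.2% and 20.2%) and T or NK cells (74.9% and 42.9% beside 39.3% and 34.3%). Pericytes were slightly above it (33.2% and 35.1% beside 25.4% and 30.1%). Endothelial cells stood at 20.7% and 16.4%, and neutrophils at 25.5% and 37.0% beside 30.2% and 39.3% for the markers. Tumor cells held 96.4% and 94.8% of all Cfb UMIs, the highest share of any member.

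Fibroblasts were clustered again without the 9 genes, and the complement genes were unequal among the 5 sub-clusters. Sub-cluster 1, led by Crabp1, Cyp26a1 and Igf2, held 51.9% of library 1 fibroblasts and 22.7% of library 2 fibroblasts. Sub-cluster 2 was led by Mmp9, Igha and Ccn3, with Col14a1 and Dpt, and held 18.8% and 29.1%. Sub-cluster 3, led by Ighg1, Calca and Slpi, with Saa3, held 6.61% and 30.2% (25 and 134 cells). Sub-cluster 4, led by Tmem59l, Htra1 and A2m, held 13.5% and 9.46%. Sub-cluster 5 was led by the dendritic cell genes Ccl17, Ccr7 and Ccl22, so its genes go against the gate. Immunoglobulin genes of plasma cells led sub-clusters 2 and 3 in part.

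C3 was highest in sub-clusters 2 and 3, at 619 and 1201 CPM in library 1 and 759 and 571 in library 2. Sub-cluster 1 had 201 CPM of C3 in library 1 and 464 in library 2. With the sub-clusters of library 2 weighted to the shares of library 1, the C3 ratio was 0.83 in place of 1.01. Masp1 was highest in sub-clusters 1 and 4, at 64.6 and 60.0 CPM in library 1 (119 and 8 UMIs) and 25.7 and 20.9 in library 2 (27 and 2 UMIs). Sub-clusters 2 and 3 had 0 Masp1 UMIs in library 1, with upper Poisson ends of 19.4 and 25.5 CPM. In library 2 they had 11.5 and 2.35 CPM on 5 and 3 UMIs. The weighted Masp1 ratio was -1.26. Serping1 was lower in library 2 in all 5 sub-clusters (0 of 5 higher), with 2310 CPM in sub-cluster 4 of library 1 against 950 in library 2, and its weighted ratio was -0.38. C2 had a weighted ratio of -0.02, and in sub-cluster 1 it was at 151 and 152 CPM. C1s1 was at 262 to 538 CPM in sub-clusters 1 to 4. In sub-cluster 5, C1s1 was at 75.4 and 169 CPM and C1qb at 304 and 979, and macrophage markers were at 8.27% and 20.9% of their macrophage level, beside 1.28% to 5.71% in the other sub-clusters.

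**Figure D4:**
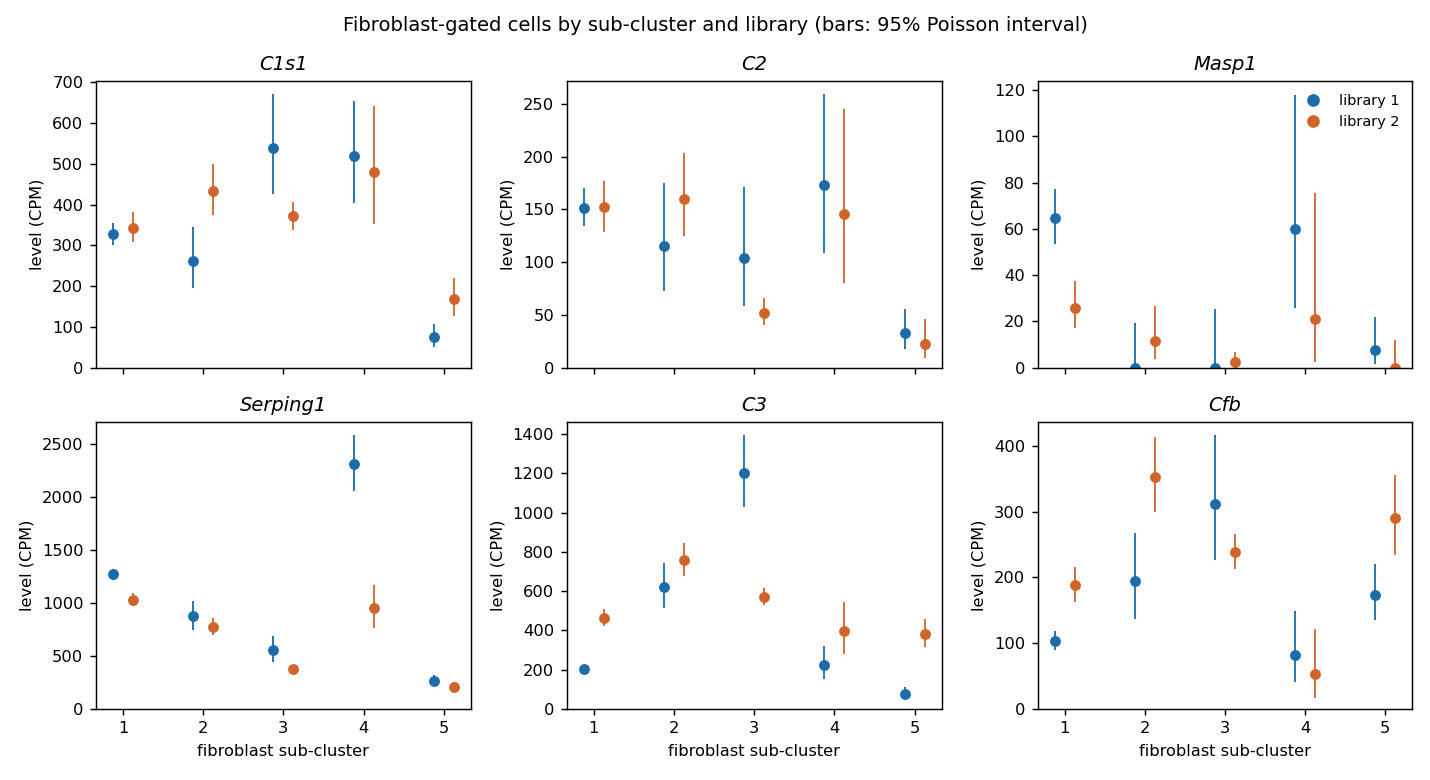
Level (CPM) of 6 complement genes in the 5 fibroblast sub-clusters, library 1 in blue and library 2 in orange, with exact Poisson 95% intervals. C3 is highest in sub-clusters 2 and 3, Masp1 and Serping1 in sub-clusters 1 and 4, and C2 and C1s1 are lowest in sub-cluster 5.

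Within tumor cells, C3, Cfb and C1s1 shared a cluster in which all were high. Of the clusters with at least 30 tumor-gated cells in each library there were 12. Cluster 1, led by the gastric and mucosal genes Gkn2, Prap1 and Pigr, had C3 at 223 CPM in library 1 and 456 in library 2, Cfb at 602 and 588, and C1s1 at 22.0 and 84.7. Cluster 4, led by Snap25, Pcdh9 and Ptgs2, had C3 at 34.7 and 41.2, Cfb at 96.3 and 90.7 and C1s1 at 3.17 and 6.51. Cluster 10 was led by the antigen-presentation and interferon genes Tap1 and Iigp1, with Mt2, Crisp1 and Mt1 close behind. It had high Cfb (489 and 411) with C3 at 96.3 and 108. Cluster 18, led by Ifitm1 and Muc5b on only 38 and 58 cells, had Cfb at 405 and 565. Cluster 9 (Insm1, Il11) and cluster 12 (Apoc2, Mmp10) were low in C3, at 8.94 to 32.1 CPM.

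The difference between the libraries in tumor cells ran through most of these clusters for C1s1 and C3 and not for Cfb. C1s1 was higher in library 2 in 11 of the 12 clusters and past 2-fold in 8, with a median log2 ratio of 1.47. No minimum level was set for these cluster counts, and no share of all genes per cluster is given. Of the 8, clusters 2, 6, 7, 9 and 10 were below 20 CPM in both libraries. Clusters 9 and 10 had 7 and 4 C1s1 UMIs in library 1. C3 was higher in 11 of the 12 and past 2-fold in 4, with a median of 0.60. In cluster 12, which is among the 4, library 1 had 7 C3 UMIs. Cfb was higher in 7 of the 12, with a median of 0.06, and past 2-fold in 0. With library 2 weighted to the cluster shares of library 1, the ratios were 1.78 for C1s1, 0.96 for C3 and 0.01 for Cfb, against 1.71, 0.83 and 0.05 unweighted. C1s1 ran the other way only in cluster 12 (-0.62), where library 1 had 32 cells, and C3 only in cluster 9 (-0.32).

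**Figure D5:**
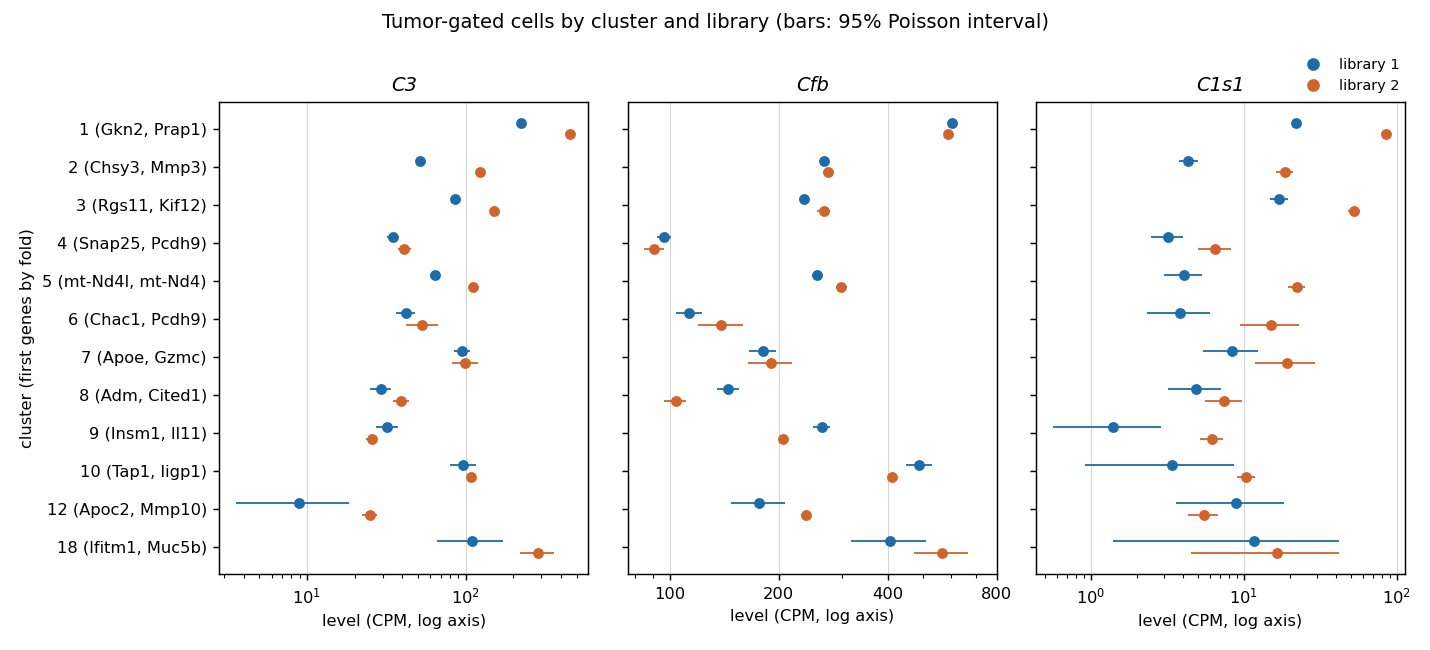
Level (CPM, log axes) of C3, Cfb and C1s1 in tumor-gated cells of the 12 clusters with at least 30 such cells per library, labelled by number and first genes; library 1 is blue, library 2 orange, and bars are exact Poisson 95% intervals. Cluster 1 is high for all these genes, and library 2 lies to the right for C1s1 in 11 of 12 clusters.

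Cell by cell, C3 was seen in fewer tumor cells than Cfb, and more of its UMIs lay in the highest cells. In cells thinned to 5000 UMIs, C3 was seen in 21.8% of library 1 and 29.9% of library 2 tumor cells, and the top 10% of cells held 75.2% and 71.6% of its UMIs. Cfb was seen in 61.2% and 63.5%, and the top 10% held 39.0% and 36.7%. Both measures depend on level, and tumor cells had 321 and 332 CPM of Cfb against 99.7 and 178 of C3. Evenness at an equal level was not tested. Tumor cells with C3 had more Cfb than those without, at 372 against 249 CPM in library 1 and 432 against 242 in library 2. Tumor cells with C1s1 had more C3 than those without, at 526 against 78.6 CPM and 725 against 110. Between cells with and without C3, C1qb stood at 73.0 against 53.4 CPM and 73.2 against 60.0. When tumor cells were split at the median of their epithelial marker score, Cfb was at 416 CPM in the upper and 197 in the lower side in library 1, and at 399 and 239 in library 2. C3 was at 120 and 73.6 CPM in library 1 and 191 and 161 in library 2. C1s1 was at 11.4 and 7.60 in library 1 and at 33.2 and 35.2 in library 2.

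Of 49 other complement genes listed from textbook knowledge, 48 were in the matrix and 21 reached 20 CPM in both libraries in the lineage that was first on average over the libraries, which is the lineage named for each. Of these, 10 were clear, 1 was past 2-fold higher in library 2, 1 was past 2-fold lower, and the median log2 ratio was -0.02. Among all genes at 20 CPM, 11.1% were clear. The gene past 2-fold higher was C5ar2 in neutrophils, where 13.5% of genes were. The gene past 2-fold lower was Cd59a in fibroblasts, where 1.33% of genes were. In the classical pathway, C1ra, the partner protease of C1s, was in fibroblasts (84.6 and 56.5 CPM), as C1s1 was. C4b, the C4 gene, was first in macrophages (329 and 325), with fibroblasts at 87.9 and 190. In the lectin pathway only Colec12, a collectin, passed (fibroblasts, 209 and 142), and Mbl1 and Mbl2, the mannose-binding lectins, had 0 UMIs. In the alternative pathway, Cfp, the stabilizer properdin, was in macrophages (479 and 720), and Cfd, which activates factor B, had 0 UMIs. The assay was probe-based, and whether the probes of Mbl1, Mbl2 and Cfd worked was not tested. Of 7 terminal pathway genes, C6 alone passed (macrophages, 92.9 and 69.5).

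Regulators and receptors spread over more lineages. Cfi, factor I, was in tumor cells (60.1 and 57.9 CPM). Cd59a, a membrane inhibitor of the terminal complex, was in fibroblasts at 113 and 49.2 CPM, a log2 ratio of -1.18, in the lineage where 1.33% of genes were past 2-fold lower. Clu, clusterin, was in tumor cells at 27077 and 21022 CPM, with T or NK cells next. Vtn, vitronectin, was in pericytes (27.8 and 49.9), and Cr1l, a C3b regulator, was in blood endothelial cells (29.1 and 32.2) and pericytes (23.1 and 33.3). Receptors of C3 fragments and C5a were in myeloid cells: C3ar1 was at 179 and 274 CPM and C5ar1 at 336 and 436 in macrophages, and Itgam was at 691 and 851 in neutrophils. Itgax (641 and 655) and Itgb2 (728 and 918) were in macrophages, and Itgb2 was at 951 in neutrophils of library 2. C5ar2, another C5a receptor, was at 59.4 and 222 CPM in neutrophils and 117 and 102 in macrophages. The neutrophil log2 ratio was 1.89, in a lineage where 13.5% of genes were past 2-fold higher. Cd93, once described as a C1q receptor, was in blood endothelial cells (1263 and 1351). Lrp1 and Calr, which take up C1q-tagged material, were first in fibroblasts (2038 and 1725, and 333 and 312), and C1qbp in tumor cells (28.2 and 26.1).

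Genes whose levels ran most like each member were found over the 14 lineage-by-library points, by Pearson r of log2(CPM + 1) among genes with at least 20 CPM in the member's first lineage. These points share libraries, and the 2 points of a lineage are near repeats, so r is descriptive. For the C1q chains the closest included each other, H2-Eb1, H2-Aa, Apoe, Mpeg1 and Ctss (r from 0.976 to 0.993). Serping1 ran with Lhfp (0.958), Col1a2 (0.955), Mrgprf (0.952), Col1a1 (0.952) and Map1a (0.952). C2 ran with Ptger3 (0.933), Draxin, Fzd1, Aoc1 and Col24a1. C1s1 ran with Adamts15 (0.920), H1fx, Azin2, Zfp469 and Insyn1. The remaining genes had looser company: Mt1 (0.893), Rhoq, Myo7a, Pyroxd2 and Acly for C3, Lgr5 (0.882), Tmem59, Srpr, Sorcs2 and Mtch1 for Masp1, and Lrp6 (0.862), Emp3, Pla2g4a, Trf and Hpse for Cfb. Among the members, C1s1 and Serping1 had r of 0.85, C2 and Masp1 0.72, and C3 and Cfb 0.56.

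Over all 63 pairs of a member and a ranked lineage, 42 reached 20 CPM in 1 library and 5 of these were past 2-fold between the libraries. They were C1s1 in tumor cells (1.71), C1s1 in neutrophils (2.22, on 1 and 5 UMIs, counting interval -0.88 to 5.32), Masp1 in fibroblasts (-1.95), C3 in fibroblasts (1.01) and C3 in pericytes (3.94). The share of genes past 2-fold in the lineages of these pairs was 0.411% higher and 0.153% lower in tumor cells, 1.03% and 1.33% in fibroblasts, 8.20% and 8.27% in pericytes and 13.5% and 16.7% in neutrophils. The 3 C1q chains were past 2-fold at that level in 0 of the ranked lineages. Below 20 CPM in both libraries, C1s1 had a log2 ratio of 1.11 in macrophages, 1.31 in blood endothelial cells and 4.23 in T or NK cells, the last on 0 and 15 UMIs. Among pairs at 20 CPM, no member was past 2-fold in macrophages (0.776% of genes higher, 1.16% lower), T or NK cells (4.19% and 3.14%) or blood endothelial cells (4.10% and 2.04%).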

How the data were processed

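Probe-based single-cell RNA sequencing of fixed cells was deposited as 1 matrix of raw UMI counts over 19059 genes. The submitters' processing notes name Cell Ranger 8.0.0 and mm10 for these counts, which the authors did not normalize, as the whole numbers show. The complement genes, the lists and the markers were chosen with earlier results of these data known. Library 1 had 203459556 UMIs and library 2 had 185474400. Cells were dropped below 200 genes or 500 UMIs, or from 20% mitochondrial UMIs up (5 and 23 cells). The automatic thresholds of Scrublet (scanpy 1.11.5) marked 0 cells in each library, so this caller did not work, and the highest scores were removed at 0.8% per 1000 cells (1217 and 1137 cells). A lineage gate needed 3 detected markers and a minimum summed score per 10000 UMIs, set after the scores were seen; no complement gene of the 9 was a marker. The epithelial tumor gate took only cells that passed no other gate. Its minimum score was 16, and macrophages had median epithelial scores of 19.4 and 18.0. Cells passing several other gates went to the one whose score over its minimum was at least 2 times the next. Those with no such lead were called mixed. So were cells of another gate with 3 epithelial markers and an epithelial score of at least 49.2 (113 and 161 mixed cells in all).

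Clusters used 3000 variable genes, 50 components, 15 neighbors and resolution 1 (leidenalg 0.10.2), without the 9 genes. Fibroblasts were clustered on 2000 genes and 30 components at 0.5. UMIs were summed per lineage and library, and ratios used CPM plus 1. With 1 library per number no test was made, and edgeR 4.0.16 gave scaling factors only. Named genes were the 9 members, listed pathway genes at 20 CPM in both libraries, and the 5 genes most like each member, of which some are not reported here. Cluster leaders were named after their values were seen. Steps were tested on simulated data.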

Additional observations from a re-analysis of the deposited data

Results flagged for a closer look

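C1qb, C3 and Cfb went in opposite directions between the libraries in T or NK cells and in other lineages, with Poisson intervals that did not overlap in either. The differences between lineages were not tested. For C1qb the log2 ratio was -0.32 in T or NK cells against 0.30 in fibroblasts and 0.23 in macrophages. Within fibroblasts C1qb was higher in library 2 in 1 of 5 sub-clusters only. That was sub-cluster 5 (1.68), whose genes go against the gate. For C3 it was -0.67 against 0.83 in tumor cells, 1.01 in fibroblasts and 3.94 in pericytes. For Cfb it was -0.75 against 0.05 in tumor cells, 0.86 in fibroblasts and 0.37 in macrophages. In library 1 the 3 highest T or NK cells held 50.7% of the C1qb UMIs of that lineage, 71.0% of C3 and 44.8% of Cfb. Poisson intervals do not cover such unevenness between cells. T or NK cells numbered 78 in library 1 and 247 in library 2. Their epithelial markers were at 39.3% and 34.3% of the tumor level and their macrophage markers at 12.7% and 9.90% of the macrophage level, both higher in library 1. The part of these in the ratios was not tested.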

How the results depend on the processing

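Of 468 single-gene values over 14 alternatives, 322 stayed within counting error, 146 moved and 0 of those past 2-fold changed sign. One alternative, leaving out tumor-gated cells of the macrophage cluster, was added after the data were seen. The count of members past 2-fold in their first lineage was 1 in place of 2 with TMM factors, with median-of-ratios size factors, with no doublet removal, with Leiden clusters and with 10 CPM added. C3 in fibroblasts was then at 0.99, 0.97, 0.98, 0.87 and 0.98. The count of clear genes was 4 under 10 alternatives, 5 with TMM factors (adding Serping1) and 6 without the 3 highest cells (adding C1s1 and Serping1). With Leiden clusters as lineages the 4 were C1qb, C1s1, C2 and Serping1, and 6 lineages were ranked, with no pericytes. The log2 fold of macrophages over the next lineage in library 1 was then 0.91 for C1qa and 0.88 for C1qc, against 2.64 and 2.41. Under these clusters C1qa between the libraries was 0.39 against -0.11, C1qb 0.76 against 0.23 and C1qc 0.30 against -0.15. C2 in fibroblasts was 0.10 against -0.38 with thinned cells. The neutrophil-named cluster held 43.5% neutrophil-gated cells. No paired analysis was possible because each group has 1 sample. Depth limits C2 and Masp1 outside fibroblasts and tumor cells, and all neutrophil and pericyte values.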
